A study of Mus musculus with 6 samples.

Results

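The nuclear genes for subunits of respiratory complexes III, IV and V were followed in RNA sequencing of inguinal white adipose tissue, the subcutaneous fat of the groin. Members were taken by gene symbol, from the families Uqcr (complex III), Cox4 to Cox8 (complex IV) and Atp5 (complex V). Named pseudogenes and the isoforms Cox7a1 and Cox8b were left out, and a mean normalised value of at least 1 was required. This gave 40 of the 25894 genes in the table, 8 for complex III, 15 for complex IV and 17 for complex V, and no symbol of these families fell below the minimum. The mice were female C57BL/6N, described as 15 weeks old. In the SF 8w-SR 2w group, 3 mice had 8 weeks of fragmented sleep and then 2 weeks of recovery sleep, and 3 Control mice formed the other group. All mice were fasted for 10 h before the fat was taken, and each library came from 1 mouse. The data bear on whether fat transcripts still differ from controls after recovery sleep.

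Complex III (cytochrome bc1) passes electrons from ubiquinol to cytochrome c, complex IV (cytochrome c oxidase) passes them on to oxygen, and the proton gradient that these steps build drives ATP synthesis by complex V. The catalytic cores of complexes III and IV hold proteins coded by mitochondrial DNA, and most other subunits are small proteins coded in the nucleus and imported. White fat has few mitochondria per cell beside brown fat, where the same chain feeds heat production through Ucp1. In bulk tissue, fewer cells of a type and less RNA per cell cannot be told apart.

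The deposited values are read counts divided by a size factor for each library, called normalised values here, and 15610201 to 19703569 reads were recovered per library. In some tissue markers, Controls 2 and 3 stood apart from the other libraries. The summed value of 8 adipocyte markers was 106165 and 128337 in Controls 2 and 3, against 303810 in Control 1 and 208513 to 373770 in the SF 8w-SR 2w mice. Fabp4 was the largest part of each sum, with 41622 and 52486 in Controls 2 and 3 and 188052 in Control 1. Adipoq, Cidec and Lipe were also lowest in Controls 2 and 3, but Plin1, Pparg, Lep and Slc2a4 were not. Plin1 and Lep were highest in Control 3, at 21415 and 3452. The summed value of 8 mammary epithelium markers was 7458 and 9149 in Controls 2 and 3 and 23551 to 34003 in the other libraries. B and plasma cell markers summed to 87375, 21338 and 34279 in Control 2, Control 3 and SF 8w-SR 2w 2 and to between 1849 and 3459 elsewhere. The part of these tissue markers in the results below was not tested.

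Over the 40 genes, the Control mice were spread more widely than the SF 8w-SR 2w mice. Control 1 held the highest value of the 6 libraries for 29 members, 72.5%, against 12.7% of all genes tested. Controls 2 and 3 were the lowest pair for 30 members, 75%, against 20.6% of all genes tested, and both orders held together for 23 members, 57.5% against 5.26%. The 40 genes summed to 1.10% of the library total in Control 1, 0.502% in Control 2 and 0.550% in Control 3. In SF 8w-SR 2w 1, 2 and 3 the sums were 0.891%, 0.880% and 0.746%, between the controls. The median coefficient of variation was 21.6% over SF 8w-SR 2w mice and 66.0% over Control mice, and it was larger in Control for 37 of 40 members. Over all genes tested the medians were 31.2% and 43.7%, and the Control value was the larger for 60.6%.

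**Figure D1:**
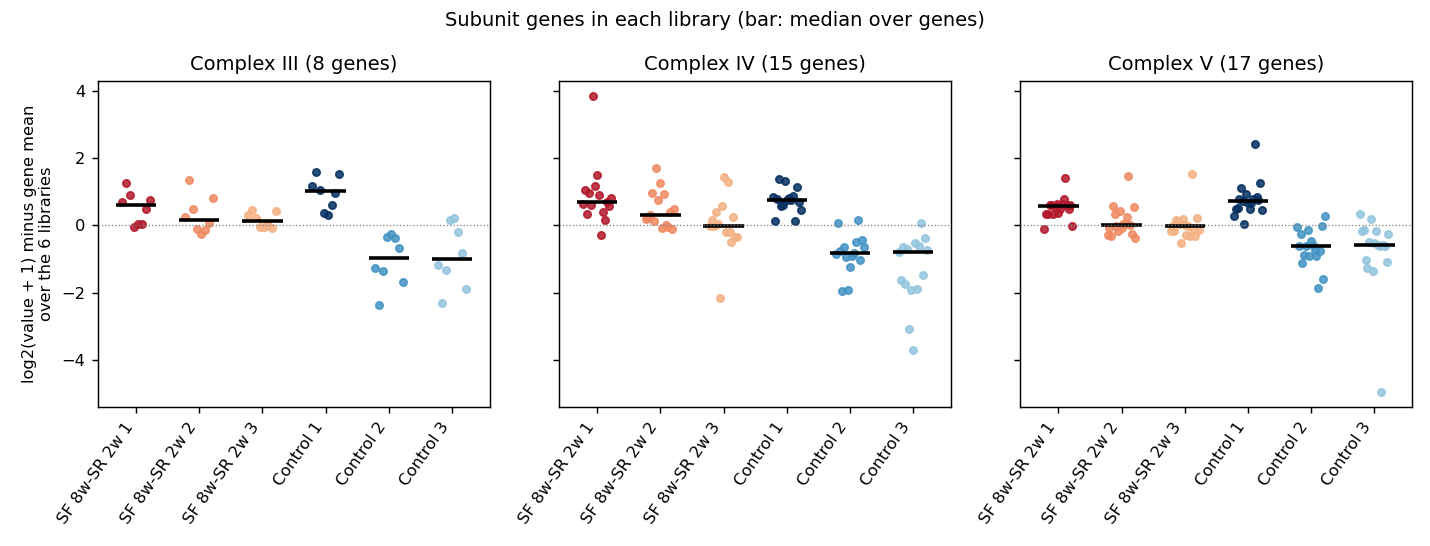
Each point is a subunit gene in a library, as log2(value + 1) minus the gene's mean over the 6 libraries, and bars are medians over genes. Control 1 has medians of 1.02, 0.77 and 0.73 for complexes III, IV and V, Control 2 has -0.96, -0.81 and -0.62, Control 3 has -0.999, -0.79 and -0.58, and the SF 8w-SR 2w mice lie from -0.01 to 0.68.

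Against this spread, no subunit gene passed the test between groups. In limma on log2(value + 1) over 22290 genes, 0 of 40 members were called at a false discovery rate (FDR) of 0.05, and 0% of all genes were (smallest adjusted p = 0.697 for members and for all genes). At an unadjusted p under 0.05 there were 3 members on the higher side in SF 8w-SR 2w, 7.5% against 3.24% of all genes, and 0 on the lower side, against 2.14%. All 3 SF 8w-SR 2w mice lay above all Control mice for 2 members, 5% against 5.02% of all genes, and below for 1 member, against 3.58%. The log2 difference was above 0 for 31 of 40 members, 77.5% against 51.6% of all genes, with a median of 0.47 against 0.02. The medians were 0.59 for complex III, 0.62 for complex IV and 0.25 for complex V. The medians of all 3 complexes were smaller when Control 2, Control 3 or SF 8w-SR 2w 1 was left out, as given further on.

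**Figure D2:**
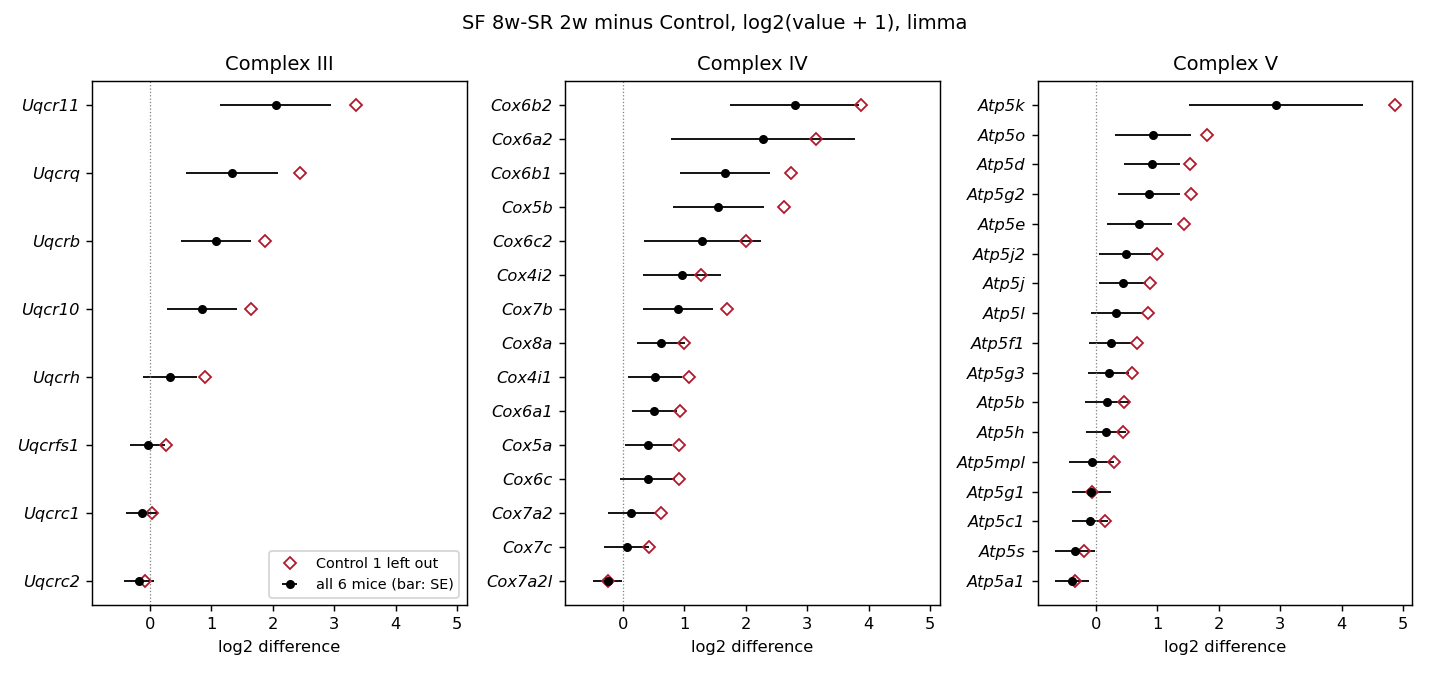
Log2 difference of each subunit gene, SF 8w-SR 2w minus Control, with all 6 mice (points, SE bars, n = 3 mice a group) and with Control 1 left out (diamonds). With all mice the values run from -0.38 (Atp5a1) to 2.93 (Atp5k), and the diamonds of most genes lie to the right.

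In complex III, the large core subunits had group differences near 0, and the small ones were more widely split among the Control mice. Uqcrc1, a core protein on the matrix side, had values of 4258, 4054 and 4265 in SF 8w-SR 2w 1 to 3 and 5713, 3435 and 4902 in Controls 1 to 3. The SF 8w-SR 2w values lay within the Control range, with a log2 difference of -0.13 (SE 0.25). Uqcrc2, its partner core protein, had 3902, 3165 and 3657 against 4703, 3183 and 4396, a difference of -0.18 (SE 0.24). Uqcrfs1, the Rieske iron-sulphur protein that takes electrons from ubiquinol, had 4419.7, 3938 and 4370.0 against 6587, 3297 and 3782. Its groups overlapped, with a difference of -0.04 (SE 0.29). Control 1 was highest for each of these core subunits, and for Uqcrfs1 Controls 2 and 3 were also the lowest pair. The Control values of Uqcrc1, Uqcrc2 and Uqcrfs1 differed 1.66-fold, 1.48-fold and 2.00-fold.

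Uqcr11, a small subunit of the membrane part, showed the widest split of complex III. It had values of 1102, 1179.5 and 628 in SF 8w-SR 2w 1 to 3, and 1393, 88.2 and 92.5 in Controls 1 to 3. Control 1 was the highest library, Controls 2 and 3 the lowest, and the highest Control was 15.8 times the lowest. The means were 969.7 ± 298.9 (SD, n = 3) and 524.5 ± 752.1, with a log2 difference of 2.05 (SE 0.90, limma adjusted p = 0.697). Uqcrq, named for its binding of ubiquinone, had 2896, 2991 and 2303 against 4969, 534 and 465, again with Control 1 highest and Controls 2 and 3 lowest. Uqcrb, a subunit of the membrane part, had 2235, 1665 and 1379.6 against 2479, 463 and 472, and Uqcr10 had 2898, 2113 and 2191 against 4011, 738 and 779. Uqcrh, the hinge protein that helps cytochrome c dock, had a milder split, with 3949, 2954 and 2697 against 5542, 1781 and 1602. Uqcr11 has a coding sequence of 171 bases, 60.2% of them G or C, and Atp5k of complex V one of 216 bases, 53.7% G or C. They are printed to show how short the most divided members are, from GENCODE M21, 5′ to 3′, with the start and stop codons in capitals.
Uqcr11: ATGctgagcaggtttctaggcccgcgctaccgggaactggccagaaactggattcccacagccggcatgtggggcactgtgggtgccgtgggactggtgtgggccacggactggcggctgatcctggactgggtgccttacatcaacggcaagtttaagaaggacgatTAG
Atp5k: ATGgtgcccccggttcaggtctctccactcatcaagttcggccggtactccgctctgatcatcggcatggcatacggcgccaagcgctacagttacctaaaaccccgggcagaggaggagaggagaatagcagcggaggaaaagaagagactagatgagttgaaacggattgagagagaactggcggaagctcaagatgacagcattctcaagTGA

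In complex IV, 14 of 15 members had a log2 difference above 0 and 0 passed. Cox4i1, the widespread form of the subunit at which ATP slows the enzyme, was its most abundant member by value. It had 11625, 8576 and 7398 in SF 8w-SR 2w 1 to 3 and 13537, 4194 and 4372 in Controls 1 to 3, a difference of 0.52 (SE 0.44). Each SF 8w-SR 2w mouse lay between Control 1 and the other Control mice. Cox8a, a short membrane subunit, had 5758, 4573 and 2557 against 4459, 2101 and 1958, a difference of 0.62 (SE 0.39). Cox6b1, which bridges the monomers of the enzyme on the intermembrane side, had 3867, 2884 and 2580.5 against 4339.9, 457 and 456. Its Control values differed 9.53-fold, and the log2 difference was 1.66 (SE 0.74, limma unadjusted p = 0.0494, adjusted p = 0.697). Cox5b, the zinc-binding subunit, had 1442, 1447 and 965 against 1907, 189 and 221, a difference of 1.55 (SE 0.74). Cox5a, which lies on the matrix side, had 1407, 1372 and 1104 against 1916, 652 and 713.

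In the other widespread subunits of complex IV, Controls 2 and 3 were again the lowest libraries. Cox7b had 2435, 2017 and 1799 against 3379, 748 and 544. Cox6c had 5153, 2609 and 2414 against 4885, 1476 and 1945. Cox7c had 3429, 2122 and 1801 against 3747, 1710.2 and 1790.2, with a difference of 0.06 (SE 0.36). Their Control values differed 6.21-fold, 3.31-fold and 2.19-fold.

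The isoform groups of complex IV did not share one pattern. Cox7a2l, also called SCAF1, is known for a role in joining complexes III and IV into supercomplexes, which was not measured in these mice. It had 3689, 3179 and 2331 in SF 8w-SR 2w mice and 3584, 3667 and 3477 in Control mice. Its 3 Control values differed only 1.05-fold, and its difference of -0.25 (SE 0.24) was the only one below 0 in complex IV. Cox7a2, its paralogue inside the enzyme, had 3232, 2423 and 2110.0 against 4475, 1715 and 1604. The Cox7a2 value was therefore 125% of the Cox7a2l value in Control 1, 46.8% and 46.1% in Controls 2 and 3, and 76.2% to 90.5% in SF 8w-SR 2w mice. Cox6a1, the widespread form, had 8492, 6195 and 5745 against 8372, 3578 and 3464.5, a difference of 0.51 (SE 0.36).

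Cox6a2, the form of heart and skeletal muscle, had values of 120.3, 26.5 and 0.903 in SF 8w-SR 2w 1 to 3 and 11.7, 3.39 and 0 in Controls 1 to 3. These rest on 116, 35 and 1 recovered reads and on 11, 3 and 0. The summed value of 10 skeletal muscle markers was 89903, 2235 and 407 in the SF 8w-SR 2w mice and 1063, 11760.3 and 184 in the Control mice. SF 8w-SR 2w 1 was highest in both and Control 3 lowest in both. Control 2 was second in muscle markers and held 3 Cox6a2 reads. The log2 difference for Cox6a2 was 2.28 (SE 1.497), and the part of these markers in it was not tested.

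**Figure D3:**
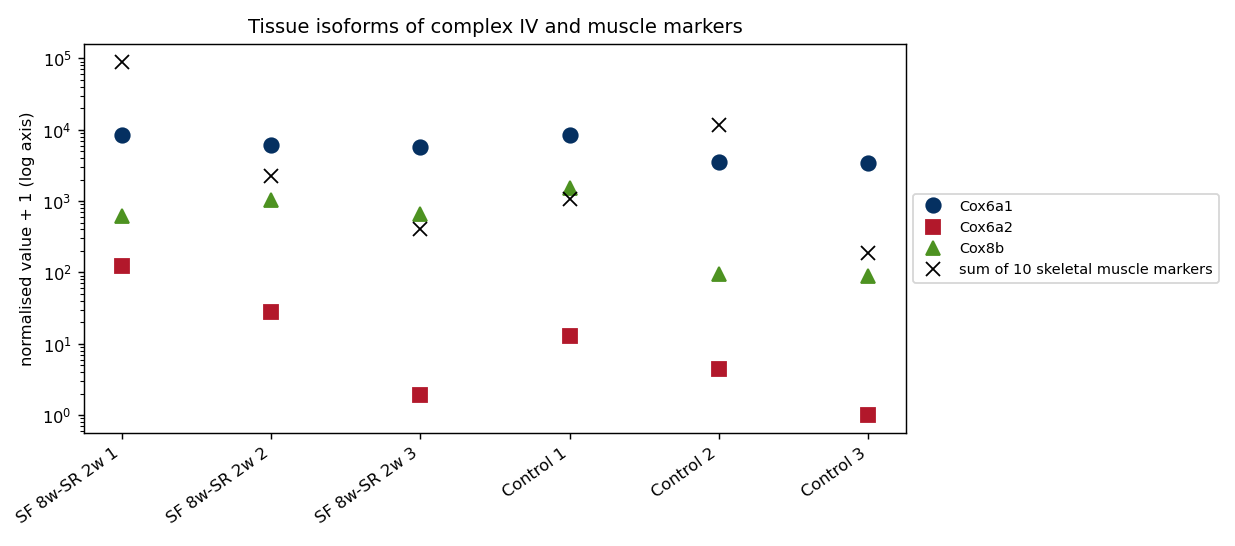
Normalised values plus 1, on a log axis, for Cox6a1, Cox6a2, Cox8b and the sum of 10 skeletal muscle markers in each library. Cox6a2 and the muscle sum are highest in SF 8w-SR 2w 1, at 120.3 and 89903, and lowest in Control 3, while Cox8b is lowest in Controls 2 and 3.

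Cox4i2, the form of lung and oxygen-sensing cells, had 84.0, 47.0 and 45.1 against 43.7, 41.8 and 12.3. All 3 SF 8w-SR 2w mice lay above all Control mice, by a margin of 45.1 to 43.7, and the difference was 0.96 (SE 0.63). Cox6b2, known from testis, had 36.3, 30.3 and 34.3 against 21.3, 4.52 and 0, again without overlap, on 35, 40 and 38 recovered reads against 20, 4 and 0. Its difference of 2.80 (SE 1.06) had the smallest p of the 40 genes (limma unadjusted p = 0.0254, adjusted p = 0.697). Cox4i2 was 0.280% to 0.997% of Cox4i1 in every library, and Cox6b2 at most 1.33% of Cox6b1. Cox6c2 had values from 0 to 8.13, and the annotation used here lists it as a processed pseudogene, so reads that it shares with other genes cannot be told apart here.

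In complex V, 12 of 17 members had a log2 difference above 0 and 0 passed. Atp5b, the catalytic beta subunit, was the most abundant member by value, with 33106, 24908 and 25966 in SF 8w-SR 2w 1 to 3 and 36742, 17228 and 23382 in Controls 1 to 3. Control 1 was highest for Atp5b and Controls 2 and 3 lowest, and the groups overlapped, with a difference of 0.18 (SE 0.36). Atp5a1, the alpha subunit, had 16407, 14442 and 15611 against 21498, 16929 and 22471. All 3 SF 8w-SR 2w mice lay below all Control mice, the only member with that order, and the difference of -0.38 (SE 0.27) was the lowest of the 40 and did not pass (limma adjusted p = 0.706). Of the central stalk, Atp5c1 (gamma) had 7635, 4905 and 5438 against 8739, 5137 and 5489, with overlapping groups. Atp5d (delta) had 3718, 3616 and 2712 against 4145, 1120.2 and 1179, and Atp5e (epsilon) 2496, 2061 and 1762 against 3520.3, 881 and 673. Within 1 stalk the Control values thus differed 1.70-fold for gamma, 3.70-fold for delta and 5.23-fold for epsilon.

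The peripheral stalk, which holds the head still while the ring turns, was also uneven. Atp5o, the oligomycin sensitivity protein at its top, had 1412, 1356 and 1085 against 2234, 306 and 434, a difference of 0.93 (SE 0.61). Atp5f1 (subunit b) had 5033, 3952 and 4129 against 6613, 2601 and 2866, Atp5h (subunit d) 3145.5, 2352 and 1859.95 against 3162, 1526 and 2012, and Atp5j (factor 6) 2799, 1838 and 1782 against 2867, 1073 and 1193. For Atp5h, SF 8w-SR 2w 3 lay below Control 3. The Control values differed 7.29-fold for Atp5o and 2.07-fold to 2.67-fold for the other genes of the stalk.

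Atp5k, subunit e of the membrane part, which helps the enzyme form dimers, held the largest difference of the 40 genes. It had 628, 663 and 684 in the SF 8w-SR 2w mice, a range of 1.09-fold, and 1289.6, 64.4 and 6.68 in the Control mice. The Control 3 value rests on 6 recovered reads and the Control 1 value on 1210, a 193-fold range of values. The log2 difference was 2.93 (SE 1.41, limma adjusted p = 0.697). The pseudogene row Atp5k-ps2 held values from 0 to 2.28, and was 0 in all Control mice. Atp5l (subunit g) had 2821, 1869.8 and 1718 against 3343, 1086 and 1239.9, Atp5j2 (subunit f) 3617, 2529 and 1702 against 3598, 1134 and 1375, and Atp5mpl, a small membrane protein of the enzyme, 1619, 971 and 923 against 1947, 1137 and 751. The SF 8w-SR 2w values of Atp5mpl all lay within the Control range, with a difference of -0.07 (SE 0.37). Atp5s, named coupling factor B, was low at 199, 156 and 181 against 277, 243 and 168.

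The ring of c subunits comes from 3 genes whose mature proteins are the same. Atp5g3 had 5005, 3655 and 3852 against 6042, 2786 and 2700.3, and Atp5g2 had 2637, 2282 and 1938.5 against 3228, 899.8 and 664. Atp5g1 had 717, 433 and 340.4 against 503, 439.7 and 553, a difference of -0.07 (SE 0.31), with the Control values inside the range of the SF 8w-SR 2w mice. Atp5g2 made up 33.0% of the summed value of the 3 genes in Control 1, 21.8% and 17.0% in Controls 2 and 3, and 31.5% to 35.8% in the SF 8w-SR 2w mice. The Atp5g1 share was 5.15% in Control 1, 10.7% and 14.1% in Controls 2 and 3, and 5.55% to 8.58% in the SF 8w-SR 2w mice. Per kilobase of the transcript used, the mean over libraries was 14034 for Atp5b, 7241 for Atp5a1, 5542 for Atp5g3, 2656 for Atp5g2 and 106 for Atp5g1, whose annotated transcript of 4715 bases is long for its coding part.

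The choice of members used symbols and levels, not gene length, and the split of the Control mice went with length. The 39 members with a coding sequence ran from 159 bases (Atp5e) to 1662 (Atp5a1), with a median of 336 against 1401 over the 11096 coding genes with a mean of at least 100. Among the 14 members under 300 bases with a mean of at least 100, the median deviation was 1.04 in Control 1, -0.90 in Control 2 and -0.999 in Control 3. Among the 7 members of 700 bases and over, it was 0.49, -0.35 and -0.15. The 206 other genes under 300 bases showed the same order of Control mice, at 0.42, -0.41 and -0.57, and the 9149 other genes of 700 bases and over had -0.05, 0.06 and 0.07. Across the 39 members, the Spearman rho of deviation on coding length was -0.54 in Control 1, 0.44 in Control 2, 0.54 in Control 3, and -0.59, -0.42 and -0.08 in SF 8w-SR 2w 1 to 3. For the G and C share of the coding sequence, rho was 0.07, -0.35 and -0.40 in Controls 1, 2 and 3. In SF 8w-SR 2w 1 to 3 it was 0.421, 0.525 and 0.231. With the log2 difference of the members, rho was 0.474 for this share and -0.437 for coding length. Over the 11096 genes these were 0.457 and -0.222. The fit with trends removed used the whole transcript instead. For transcript length, rho with the log2 difference was -0.490 over the members and -0.427 over the 11096 genes. For the G and C share of the transcript it was 0.402 and 0.561. These points share their libraries and are not replicates. The length bands were chosen after the values were seen. The part of length and of G and C share in the result was not tested beyond the fit with trends removed.

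**Figure D4:**
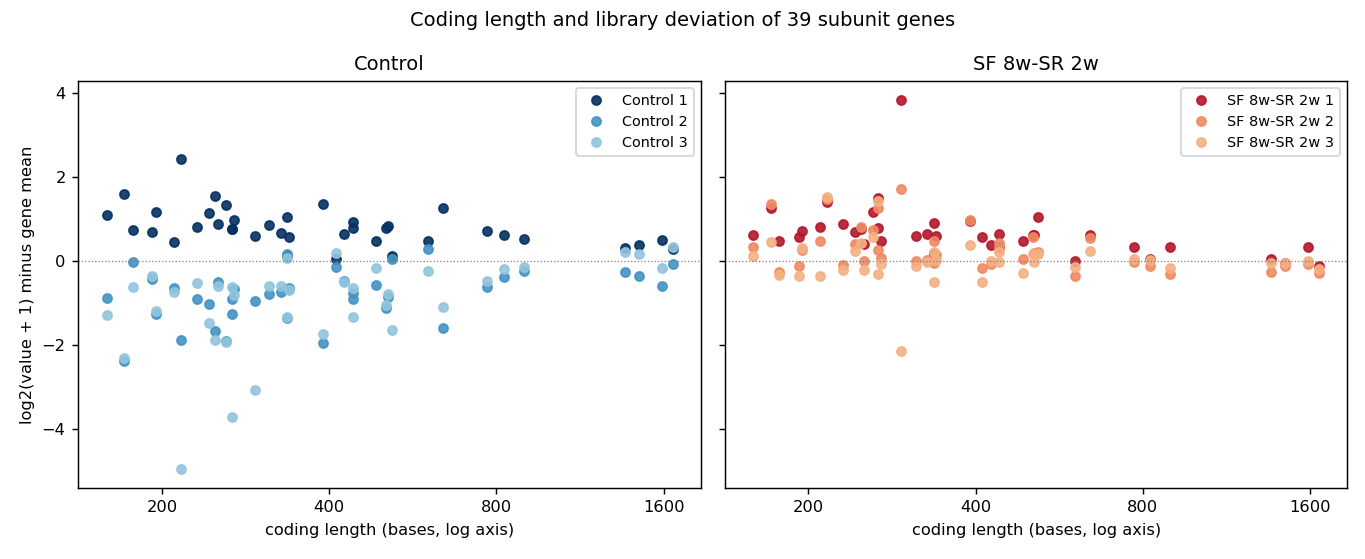
Deviation of each of 39 subunit genes from its mean over the libraries, on a log2 scale, against coding length in bases on a log axis, for Control mice (left) and SF 8w-SR 2w mice (right). Control 1 lies above Controls 2 and 3 for most genes under 700 bases, and the 7 longest genes lie within 1 unit of 0 in every library.

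Whether subunit genes were called depended on Control 1 and on the method. With Control 1 left out, limma called 12 of 40 members at an FDR of 0.05, all higher in SF 8w-SR 2w, 30% against 2.53% of all genes on the higher side, and 0 lower, against 1.26%. In complex III these were Uqcrq at 2.44 (SE 0.21, adjusted p = 0.0172), Uqcr11 at 3.36, Uqcrb at 1.88 and Uqcr10 at 1.65. In complex IV they were Cox6b1 at 2.75 (SE 0.23, adjusted p = 0.0172), Cox5b at 2.62 and Cox7b at 1.69. In complex V they were Atp5k at 4.88 (SE 0.77, adjusted p = 0.0319), Atp5o at 1.80, Atp5g2 at 1.55, Atp5d at 1.53 and Atp5e at 1.44. The Control group of that fit holds only Controls 2 and 3, the pair with the lowest summed adipocyte and mammary markers. When each library's trends with GC content and length were taken out as well, 6 of the 12 were called, 15% of members against 0.243% of all genes on the higher side. These were Uqcr11 at 2.58, Cox6b1 at 2.37, Cox5b at 2.36, Uqcrq at 2.20, Uqcrb at 1.99 and Cox7b at 1.81 (limma adjusted p from 0.0171 to 0.0214). With all 6 mice and these trends taken out, 0 members were called. limma-voom with sample quality weights called 12 of the 39 members it tested, against 4.33% of all genes on the higher side, of which 11 were among the 12 called without Control 1. It called 0 of 40 when all genes with a mean of at least 1 entered the fit, and edgeR and DESeq2 on recovered reads called 0.

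The complex medians moved with single mice in the same way. With Control 1 left out they were 1.27 for complex III, 1.08 for complex IV and 0.67 for complex V, and with Control 2 left out 0.25, 0.46 and 0.03. With Control 3 left out they were 0.24, 0.38 and 0.13, and with SF 8w-SR 2w 1 left out 0.44, 0.37 and 0.12. On recovered reads they were 0.26, 0.43 and 0.15 by edgeR and 0.24, 0.42 and 0.14 by DESeq2. With SF 8w-SR 2w 1 and Control 2 left out together, the libraries highest in muscle markers, they were 0.10, 0.21 and -0.11, and 20 of 40 members were above 0. With the B and plasma cell score as a covariate they were 0.21, 0.47 and 0.01, and with GC content and length trends taken out 0.29, 0.31 and 0.14. After removal of GC content and length trends the library medians of complex III were 0.93 in Control 1, -0.77 in Control 2 and -0.60 in Control 3, and from -0.11 to 0.39 in the SF 8w-SR 2w mice. Control 1 was still highest and Controls 2 and 3 lowest, with Control 2 now below Control 3.

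**Figure D5:**
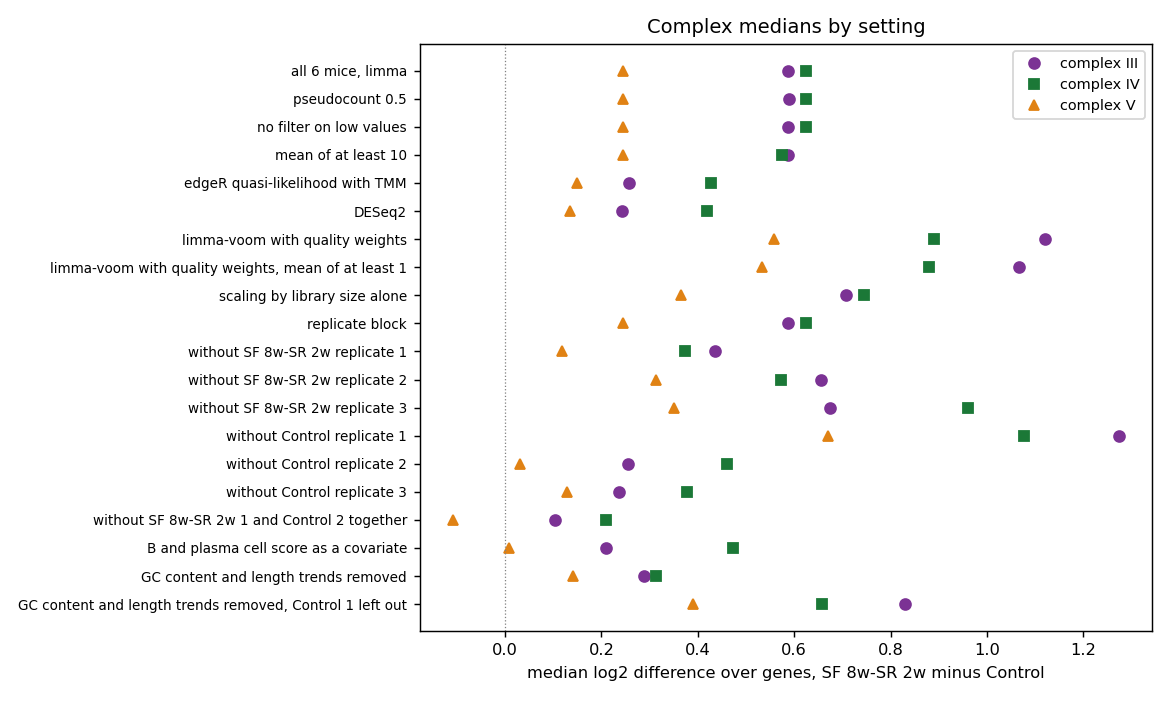
Median log2 difference over the genes of each complex, SF 8w-SR 2w minus Control, under each setting. The points lie from -0.11 (complex V without SF 8w-SR 2w 1 and Control 2) to 1.27 (complex III without Control 1).

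Subunits outside the symbol rule showed the same split of the Control mice, and 0 of them passed with all 6 mice. Without Control 1, Cyc1, Ndufa4, Cox8b and Cox7a1 passed (limma adjusted p = 0.0457, 0.044, 0.0174 and 0.0376), and Cycs and Usmg5 did not (0.054 and 0.0512). Cyc1, the cytochrome c1 subunit of complex III, had 3224, 3369 and 3078 against 4645, 1699 and 1732, a difference of 0.43 (SE 0.37). Cycs, the electron carrier between complexes III and IV, had 2041, 1933 and 1467 against 2719, 540.3 and 970.3. Ndufa4, a subunit now assigned to complex IV, had 4821, 3231 and 2935 against 5764, 1347 and 1573. Cox8b, the form of brown fat and muscle, had 619, 1029 and 659 against 1524, 93.8 and 86.9, and its partner Cox7a1 had 70.5, 161.6 and 66.8 against 134.3, 6.78 and 10.0. Usmg5, a small complex V subunit chosen after its values were seen, had 1979, 1231 and 1203 against 2322, 676 and 492. Control 1 was highest in all of these but Cox7a1, and Controls 2 and 3 lowest in all of them. Ucp1, also chosen after its values were seen, had 134.8, 1475 and 801 against 1179, 268 and 128. SF 8w-SR 2w 2 was highest for Ucp1, and SF 8w-SR 2w 1 was close to Control 3. The summed value of 6 brown and beige adipocyte markers was 770 and 869 in Controls 2 and 3 and 1480 to 5057 in the other libraries. Of these markers, Cidea, Dio2, Cox7a1 and Cox8b were lowest in Controls 2 and 3, and Ucp1 and Elovl3 were not. The part of these markers in the split was not tested.

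Atpif1, the inhibitor that stops complex V from running backwards, had 628, 371 and 332 against 429.5, 82.5 and 23.4, a difference of 2.16 (SE 0.85, limma unadjusted p = 0.0299). It did not pass with all 6 mice and passed without Control 1 (limma adjusted p = 0.0347). Of assembly factors, which help build the enzymes but are not part of them, 0 of 6 for complex III, 0 of 20 for complex IV and 0 of 4 for complex V passed, with medians of 0.20, 0.28 and 0.19. Coa5, a complex IV assembly factor, ran the other way, with 3257, 2816 and 3742 against 4247, 5804 and 7095, a difference of -0.78 (SE 0.26, limma unadjusted p = 0.0148). Its coding sequence has 225 bases, but the annotated transcript has 3863. Uqcc2, an assembly factor of complex III, followed the subunits with 472, 342 and 169.7 against 413.5, 44.1 and 62.4. Coa5 and Uqcc2 were chosen after their values were seen.

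The partner subunits coded by mitochondrial DNA shared the order of the nuclear members only in part. Of the 6 for complexes III, IV and V, 0 passed and the median difference was 0.14. mt-Cytb of complex III had 388663, 164910.0 and 244967 against 322289, 157879 and 137681, so SF 8w-SR 2w 1 was highest and Controls 2 and 3 lowest. mt-Co1 of complex IV had 414819 to 1084000 in SF 8w-SR 2w mice and 475073 to 825836 in Control mice. mt-Co2 had 7388, 6021 and 3807 against 5670.1, 2989 and 2198, with Controls 2 and 3 lowest, and mt-Co3 had 5280.2, 2224 and 2536 against 10378, 5156 and 2168, with Control 1 highest. mt-Atp6 of complex V had 9915, 3337 and 4057 against 10990.5, 4746 and 4629.7, with Control 1 highest and SF 8w-SR 2w 2 lowest. mt-Atp8 was low, from 9.59 to 21.8 over the 6 libraries. The split was not particular to complexes III, IV and V. Among the 39 complex I subunits, 33 had a difference above 0, against 51.6% of all genes, and 0 passed with all 6 mice. Without Control 1, 15 passed, against 2.53% of all genes on the higher side and 1.26% on the lower. Their median difference was 0.54, against 0.47 for the 40 members. Controls 1, 2 and 3 had median deviations of 0.82, -0.78 and -0.72 over these subunits. The 4 complex II subunits had a median difference of -0.05, and 0 passed. Of 8 regulators of mitochondrial gene expression, 0 passed, with a median of -0.17. Ppargc1a, a coactivator of mitochondrial genes, had 181, 124 and 579 against 231, 217 and 279.6. Tfam, which packs mitochondrial DNA and helps start its transcription, had 739, 619.7 and 605 against 674, 1024 and 867.

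Promoter sequences from RefSeq (GRCm38.p6) were found for 28 of the 40 genes, and the 250 bases before each start site were searched on both strands. CCGGAAG, the core of sites for ETS factors such as GABPA, was in 28.6% of the 28 genes against 6.91% of 32851 promoters. GCGCA followed by any base and GCGC, the core of sites for NRF1, a factor known for respiratory genes, was in 17.9% against 3.74%. ATGGCGG, a YY1 core, was in 3.57% against 2.21%, and CCAAT in 53.6% against 33.8%. A member gene counted if any of its promoters matched, with 31 promoters for the 28 genes. The background share is over single promoters and was not limited to genes expressed in fat, so the shares are not on equal terms. The motifs do not overlap one another in the sequences printed, and a match is only these letters. The stretches printed are those of Uqcr11, Cox6b1 and Atp5k, which the Control mice divided widely, and of Uqcrc1. The Control values of Uqcrc1 differed only 1.66-fold. Sequences run 5′ to 3′, with motifs in capitals. Uqcr11 lies at chr10:80406822-80407071 (- strand), Cox6b1 at chr7:30626115-30626364 (- strand), Atp5k at chr5:108434400-108434649 (- strand) and Uqcrc1 at chr9:108936398-108936647 (+ strand).
Uqcr11: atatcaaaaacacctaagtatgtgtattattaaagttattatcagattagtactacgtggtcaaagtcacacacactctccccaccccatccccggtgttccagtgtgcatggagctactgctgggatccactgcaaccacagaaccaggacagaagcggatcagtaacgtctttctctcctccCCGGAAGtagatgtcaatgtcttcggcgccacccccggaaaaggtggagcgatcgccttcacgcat
Cox6b1: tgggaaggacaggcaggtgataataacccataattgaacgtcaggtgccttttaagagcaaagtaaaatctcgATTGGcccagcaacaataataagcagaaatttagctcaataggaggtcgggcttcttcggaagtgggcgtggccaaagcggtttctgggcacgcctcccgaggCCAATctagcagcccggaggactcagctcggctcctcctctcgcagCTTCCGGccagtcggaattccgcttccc
Atp5k: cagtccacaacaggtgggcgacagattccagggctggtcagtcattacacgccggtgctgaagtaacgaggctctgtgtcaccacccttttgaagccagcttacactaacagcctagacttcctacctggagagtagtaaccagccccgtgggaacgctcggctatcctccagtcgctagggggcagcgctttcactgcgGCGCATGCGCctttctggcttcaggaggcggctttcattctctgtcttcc
Uqcrc1: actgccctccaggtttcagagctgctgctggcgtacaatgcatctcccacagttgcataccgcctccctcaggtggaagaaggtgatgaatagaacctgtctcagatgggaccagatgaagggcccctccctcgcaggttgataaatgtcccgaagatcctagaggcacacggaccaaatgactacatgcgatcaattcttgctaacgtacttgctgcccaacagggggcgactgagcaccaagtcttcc
Uqcr11 holds an ETS core that begins 66 bases before the start site, Cox6b1 an ETS core at 28 bases and CCAAT boxes at 177 and 74 bases, and Atp5k an NRF1 core at 50 bases. Uqcrc1 holds none of these letters in the window. Cox5b and Atp5o, with Control values 10.1-fold and 7.29-fold apart, also had promoter entries and held none of these motifs. Atp5c1, at 1.70-fold, held NRF1 and CCAAT matches, and Atp5h, at 2.07-fold, held ETS, NRF1 and CCAAT matches. Whether the motifs go with the split was not tested. Members with no entry were Atp5a1, Atp5f1, Atp5mpl, Atp5s, Cox4i1, Cox4i2, Cox6a2, Cox6c, Cox6c2, Uqcrb, Uqcrc2 and Uqcrq.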

How the data were processed

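RNA from inguinal fat of 6 mice was sequenced, 1 library per mouse, 3 mice per group. Nothing in the labels beyond separate mice describes the sampling. The p-values set the group difference against the spread between these mice, which limma moderates with that of other genes. The submitters' processing notes name CASAVA, HISAT2 2.0.5, featureCounts 1.5.0-p3 and the build mm8, and how reads shared by near-identical genes and pseudogenes were counted is not given in the sources used here. The deposited table holds a signal per Ensembl gene. In each library, 100% of the deposited signal values were whole multiples of the smallest non-zero value (tolerance 0.02), so each was taken as a number of reads over a divisor common to the library. The recovered reads were used only by the count tests edgeR and DESeq2 and by limma-voom, which were alternatives.

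Symbols were matched by Ensembl identifier, and 33 identifiers had none. A filter on the mean value (1 or more) left 22290 genes. limma 3.58.1 in R 4.3.3, with trended variance, was applied to log2(value + 1), and Benjamini-Hochberg adjustment over every gene tested set the FDR threshold of 0.05. Differences are on that scale, where low genes show less than their true fold. The count tests used edgeR 4.0.16 and DESeq2 1.42.0. Transcript and coding lengths and GC content came from GENCODE M21, whose build differs from mm8, by APPRIS principal transcript. For the alternative without GC and length trends, natural splines on transcript GC content and length (4 degrees of freedom each) were subtracted. The fit was tested on simulated counts with 3 libraries a group. It recovered 0% of 2-fold, 14% of 4-fold, 64% of 8-fold and 86% of 16-fold changes at that FDR. Of 84 calls, 2 were false. An absence of calls therefore does not show that genes were level.

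The members, gene lists, tests and alternatives were chosen with earlier results of these data known. Genes given in every library were the 3 most abundant of each complex, those with an unadjusted p under 0.05, the highest and lowest difference of each complex with a mean of at least 10, isoform groups and the inhibitor. The other members are given too, context lists by their counts and medians with a few genes by value, and a gene outside these rules is said to be chosen after its values were seen. Samples with the same number are not known to share a litter or batch.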

Additional observations from a re-analysis of the deposited data

How the results depend on the processing

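Besides the main setting, 0 genes and 0 members were called under pseudocount 0.5, no filter, a mean of at least 10, edgeR, DESeq2, scaling by library size, the replicate block, the B and plasma cell score, trends removed, the pair of libraries left out, and limma-voom on all genes with a mean of at least 1. limma-voom with quality weights on 16141 genes called 1023 genes and 12 members, and its smallest member adjusted p was 0.0451. Unadjusted p under 0.05 held for 3 members, and for 1201 genes by limma, 754 by edgeR and 1251 by DESeq2, which gave 118 adjusted p-values as NA. Leaving out 1 mouse at a time gave 0 to 844 genes and 0 to 12 members, with calls only without Control 1. Trends removed with Control 1 left out gave 56 genes and 6 members. Why these counts moved was not tested. That setting and limma-voom on all genes were chosen after seeing the data. With 1 mouse left out, 2 mice of that group set its spread.

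With the replicate block, 0 members were called and 12 had an unadjusted p under 0.05, against 3 without it. Deviations of same-numbered mice correlated across genes at 0.18, 0.39 and 0.04, and SF 8w-SR 2w 3 and Control 1 correlated best with each other (0.21), so the numbers were not taken as pairs. Members changed sign in 59 of 757 pairs of gene and setting, 11 of them with SF 8w-SR 2w 1 and Control 2 left out, and none of those genes was called in either fit. Scaling by library size moved the median of all genes from 0.02 to 0.135 and that of members from 0.465 to 0.585, and 35 members were above 0. Depth limits Cox6a2, Cox6b2, Cox6c2 and Atp5k, which have under 10 reads in at least 1 Control library.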
